A study of Mus musculus with 10 samples.

Results

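The genes described here are those of the proteasome, taken as every probe whose annotated symbol begins with Psma, Psmb, Psmc, Psmd, Psme, Psmf or Psmg and a digit, together with Pomp. They came to 87 probes for 50 genes, of 45281 probes and 19057 named genes on the array. By role, 15 of the genes encode the core particle, 6 its immune and thymic subunits and the activator ring induced with them, 19 the caps and other regulators, and 8 assembly factors. The remaining 2, Psmc3ip and Psme3ip1, carry matching letters but are not subunits, and they were kept because the rule takes them in. Psmf1 was named on no probe in the annotation used here.

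RNA came from IM2 cells, a mouse muscle line, fused for 4 days into myotubes, and its levels were read on Illumina bead arrays. Every culture carried PABPN1-FLAG, a tagged form of the protein that binds poly(A) tails in the nucleus, in which an alanine expansion causes oculopharyngeal muscular dystrophy. D7E cultures (3 arrays) expressed the mutant protein at a level given as similar to WTA, WTD cultures (3 arrays) wild type protein at a low level, and WTA cultures (2 arrays) wild type protein. The labels do not say whether the arrays of a group came from separate cultures or clones, and p-values therefore cover only the spread from array to array, possibly a technical one. WTA serves as the base of 2 of the 3 comparisons, so D7E minus WTA and WTD minus WTA share its arrays and are given side by side.

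The proteasome is the protease that takes up ubiquitin-tagged proteins and cuts them to peptides. Its core particle is a barrel of alpha and beta rings with the cutting sites on 3 beta subunits, and its caps recognise the tag, unfold the substrate and feed it into the barrel. Immune subunits replace the cutting subunits in cells exposed to interferon, and dedicated chaperones build the particle. In skeletal muscle the proteasome carries out much of the breakdown of contractile proteins, and in the muscle disease its subunits are among the proteins found in the nuclear inclusions of PABPN1.

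No proteasome probe passed the threshold in D7E minus WTA, WTD minus WTA or D7E minus WTD, where 0.569%, 1.43% and 0.0266% of all probes did. The 95% interval of the difference lay within 1.5-fold either way for 45.7%, 58.6% and 70% of the tested proteasome probes. The shares of all probes were 45.1%, 43.5% and 63.4%. Of the 87 probes, 70 for 43 genes were detected on at least 2 arrays and were tested. The genes left out were Psma1, Psma3, Psma6, Psma8, Psmb11, Psmd3 and Psmg4, whose probes were at background on all 8 arrays, with normalized log2 intensities between 4.10 and 4.43. Psma8 and Psmb11 are tissue-restricted subunits of testis and thymus, whereas Psma1, Psma3, Psma6 and Psmd3 belong to every proteasome, so a probe at background shows here only that it gave no reading. All counts below are over the tested probes or genes, and where a gene had several probes the one with the highest mean level stood for it.

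With limma and Benjamini-Hochberg adjustment over all 18815 probes tested, 0 of 70 proteasome probes were called at an adjusted p under 0.05 for D7E minus WTA, where 0.569% of all probes were called. The count was also 0 of 70 for WTD minus WTA, against 1.43% of all probes, and 0 of 70 for D7E minus WTD, against 0.0266%. At an unadjusted p under 0.05 there were 11 proteasome probes for D7E minus WTA, 5 for WTD minus WTA and 7 for D7E minus WTD. These are 15.7%, 7.14% and 10% of the 70, beside 12.4%, 14.1% and 8.12% of all probes in the same comparisons. The higher ones were 9, 4 and 5 of 70, beside 6.48%, 6.85% and 4.51% of all probes, and the lower ones 2, 1 and 2 of 70, beside 5.87%, 7.22% and 3.6%. Without background correction, 2 proteasome probes were called for D7E minus WTA, 1 for Psmb7 and 1 for Psmd10, which are described with those genes.

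The 95% interval of the difference lay within 1.5-fold either way for 24 of 43 genes in D7E minus WTA, 27 in WTD minus WTA and 36 in D7E minus WTD, where 1 probe stood for each. Over probes the counts were 32, 41 and 49 of 70 (45.7%, 58.6% and 70%), beside 45.1%, 43.5% and 63.4% of all probes, so for D7E minus WTA the share was about that of all probes. An interval within 2-fold was found for 41, 40 and 41 of the 43 genes and 66, 66 and 68 of the 70 probes, beside 92%, 90.7% and 97% of all probes. Among the 21 proteasome genes in the middle range of level, between 7.49 and 11.6 on the log2 scale, the median absolute difference was 0.16 for D7E minus WTA, 0.09 for WTD minus WTA and 0.13 for D7E minus WTD. Other genes of that range, 3053 in all, had 0.19, 0.20 and 0.13. The within-group SD had a median of 0.17 for these proteasome genes and 0.18 for the others.

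**Figure D1:**
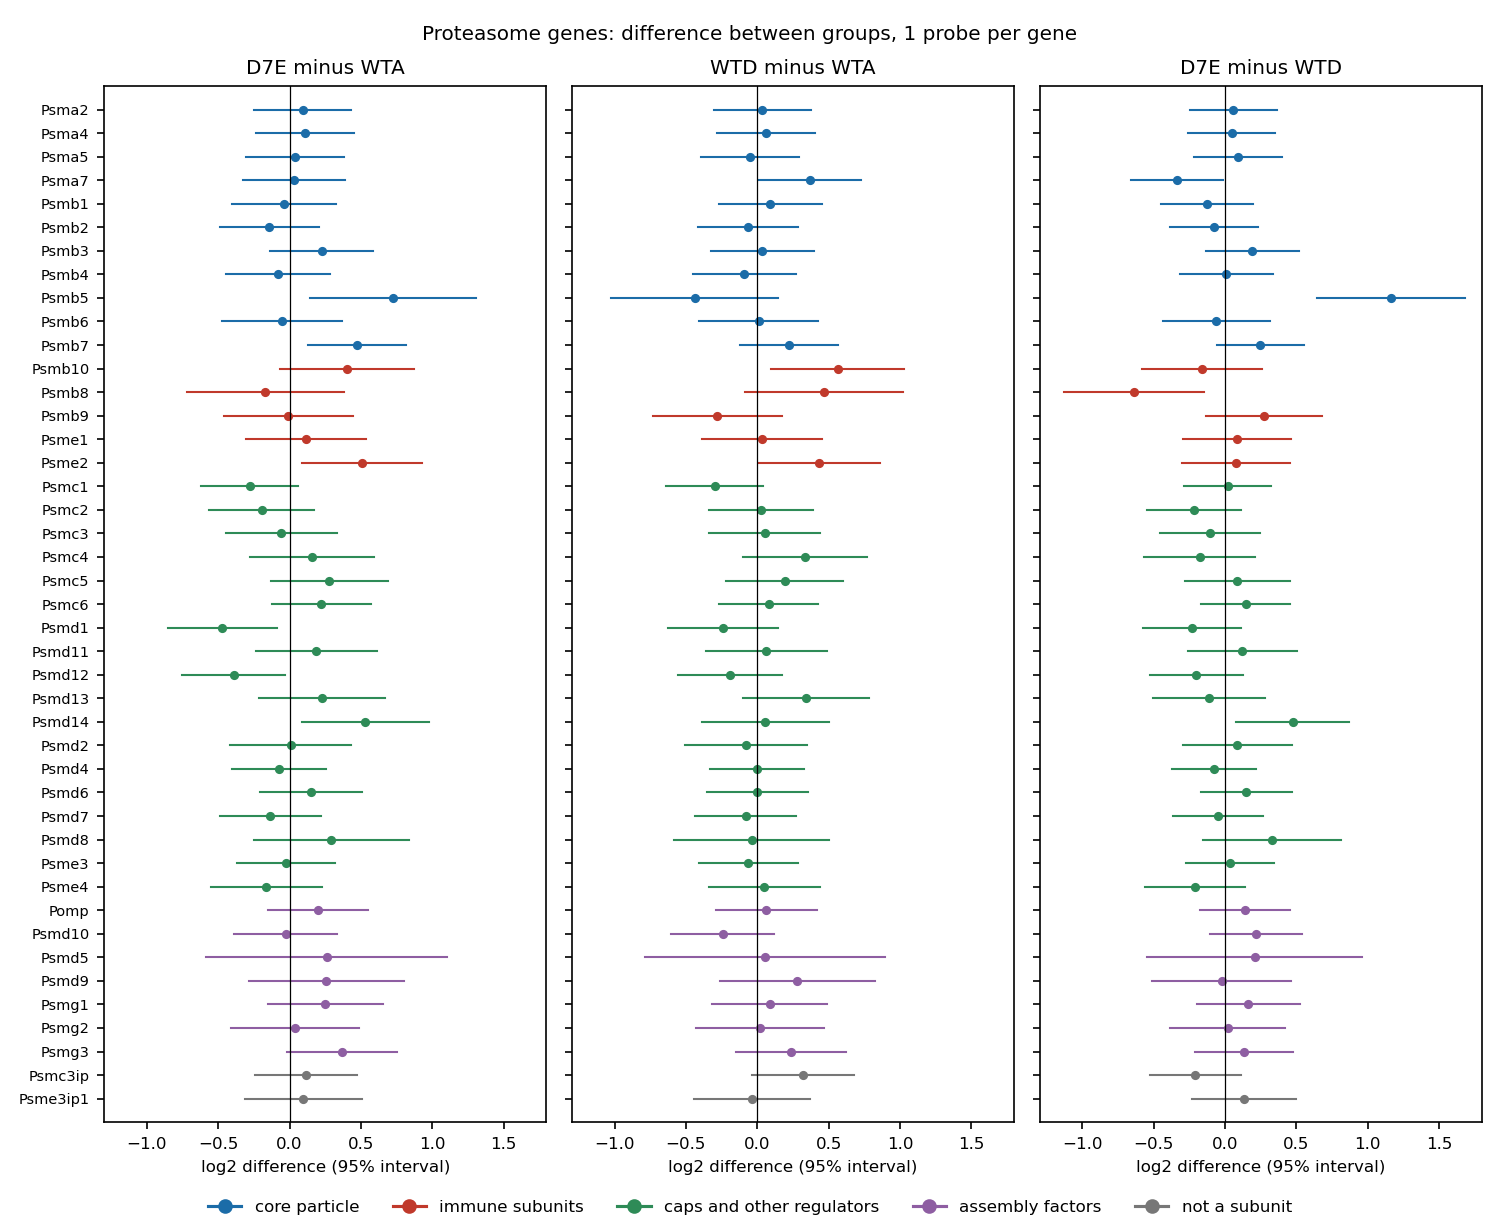
Log2 difference of each of the 43 tested proteasome genes (points) with its 95% interval (lines) for D7E minus WTA, WTD minus WTA and D7E minus WTD, 1 probe per gene, coloured by role. Psmb5 stands farthest from 0 in D7E minus WTD, at 1.16, and no gene had an adjusted p under 0.05 in any panel.

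The median difference over the 43 genes was 0.10 for D7E minus WTA, 0.03 for WTD minus WTA and 0.05 for D7E minus WTD, where all 10835 genes tested had -0.01, -0.00 and -0.01. Values above 0 were found for 27, 28 and 26 of the 43 genes and for 47, 43 and 48 of the 70 probes, beside 49.7%, 48.1% and 52% of all probes. Signs depended on the scaling. With arrays centred on their medians in place of quantile normalization, the median of all probes was 0.26, -0.09 and 0.40, and the proteasome medians were 0.54, -0.13 and 0.71. Every one of the 43 genes was then above 0 for D7E minus WTA and all but Psmb8 for D7E minus WTD, so that, for the probe standing for a gene, each other negative value given below for these comparisons changed sign under that scaling, while 12 of 43 genes were above 0 for WTD minus WTA. Single arrays also moved these medians, because the summary per array ran from -0.13 on WTA replicate 2 to 0.11 on D7E replicate 3, as deviations from each gene's mean over the arrays. Without WTA replicate 2 the D7E minus WTA median was -0.01 and the WTD minus WTA median -0.05, and without D7E replicate 3 the D7E minus WTA median was 0.02 and the D7E minus WTD median -0.02.

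By role, the assembly factors had a median of 0.25 for D7E minus WTA over 7 genes, the immune group 0.12 over 5, the core 0.04 over 11 and the caps and regulators -0.01 over 18, the last of them 0.49 with arrays centred on their medians. For WTD minus WTA the order differed, with 0.43 for the immune group, 0.06 for the assembly factors, 0.03 for the core and 0.01 for the caps. D7E minus WTD gave 0.14 for the assembly factors, 0.07 for the immune group, 0.05 for the core and -0.02 for the caps, the last of them 0.62 under that centring. The assembly median was 0.08 for D7E minus WTA without background correction, and the core, cap and assembly medians for WTD minus WTA were -0.13, -0.14 and -0.11 with arrays centred on their medians. Within the assembly group the summary was 0.08, 0.11 and 0.14 on the D7E arrays, -0.04, 0.01 and -0.04 on the WTD arrays and -0.08 and -0.26 on the WTA arrays. The D7E arrays did not overlap the others in this summary. On the probe standing for each gene, 0 of the 7 had an unadjusted limma p under 0.05 in any comparison. Over all probes 12.4%, 14.1% and 8.12% did in D7E minus WTA, WTD minus WTA and D7E minus WTD. Other probes of Psmd10 and Psmg2 read up to 0.55 and 0.49 for D7E minus WTA and are described with those genes.

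**Figure D2:**
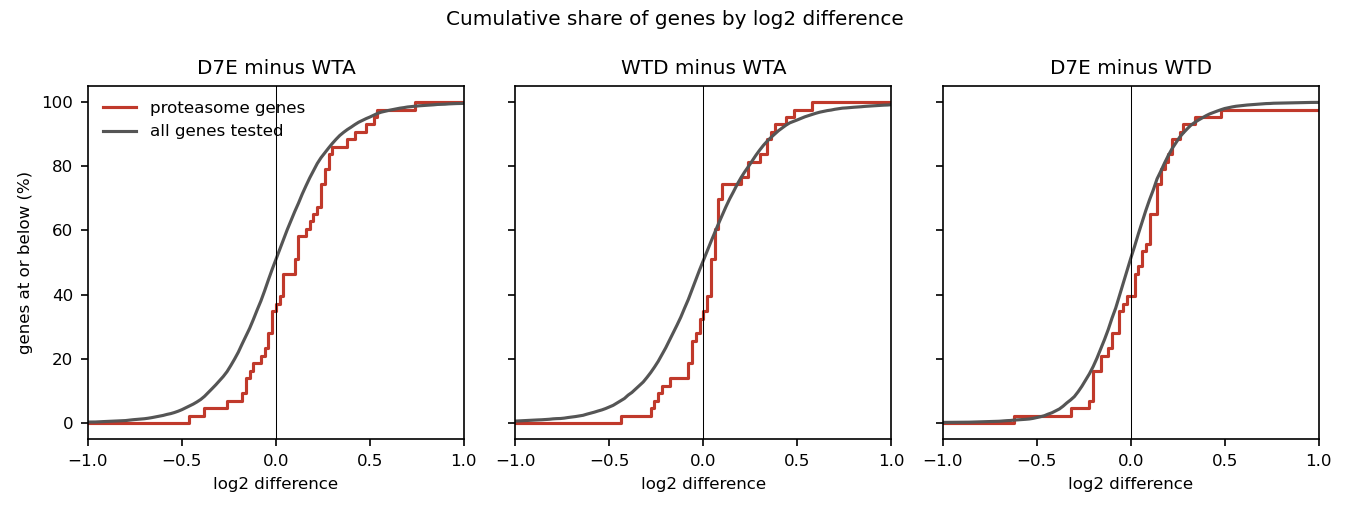
Cumulative share of genes (%) at or below each log2 difference, drawn from -1 to 1, for the 43 proteasome genes (red) and all 10835 genes tested (grey). The red line lies right of the grey one over much of D7E minus WTA, where the medians were 0.10 and -0.01, and crosses it in the other panels.

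Groups whose arrays did not overlap were counted next. For D7E minus WTA, 9 genes had every D7E array above every WTA array and 6 had every D7E array below, and over probes these were 20 and 7 of 70, beside 15.7% and 15.8% of all probes. In WTD minus WTA 6 genes lay wholly above and 1 wholly below, which over probes were 11 and 3 of 70, beside 14% and 14.7% of all probes. For D7E minus WTD 5 genes lay above and 3 below, or 11 and 4 of 70 probes, beside 7.52% and 6.7%. Non-overlap of a few arrays is common on this array, as those background shares show, and it is given here as a description.

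The alpha ring forms the outer gate of the core, and 4 of its 8 genes on the array were tested. Their differences from WTA were 0.03 to 0.11 in D7E and -0.05 to 0.37 in WTD. Psma4 read 11.52, 11.49 and 11.32 on the D7E arrays, 11.43, 11.38 and 11.38 on the WTD arrays and 11.25 and 11.42 on the WTA arrays. All 3 groups of Psma4 overlapped, and the interval of D7E minus WTA was -0.24 to 0.45. Psma7, another alpha subunit, read 10.58, 10.84 and 10.72 in D7E, 11.03, 11.02 and 11.11 in WTD and 10.83 and 10.54 in WTA. Its WTD arrays lay above those of both other groups, with 0.37 ± 0.17 for WTD minus WTA (SE; limma adjusted p = 0.339) and -0.34 ± 0.15 for D7E minus WTD (SE; adjusted p = 0.597). A second Psma7 probe gave 0.30 for WTD minus WTA but 0.03 for D7E minus WTD, so the difference between D7E and WTD was read by 1 probe of the pair. Psma2 and Psma5, also of the alpha ring, were at 0.09 and 0.04 for D7E minus WTA, 0.03 and -0.05 for WTD minus WTA, and 0.06 and 0.09 for D7E minus WTD.

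The beta ring holds the cutting sites, and all 7 of its genes were tested. Psmb6 is the caspase-like site, Psmb7 the trypsin-like site and Psmb5 the chymotrypsin-like site, while Psmb1, Psmb2, Psmb3 and Psmb4 do not cut. The non-cutting subunits differed by -0.14 to 0.23 for D7E minus WTA, -0.09 to 0.09 for WTD minus WTA and -0.13 to 0.19 for D7E minus WTD. Psmb3 had its D7E arrays at 11.92, 11.86 and 11.74, above the WTA arrays at 11.65 and 11.58, with a difference of 0.23 ± 0.17 (SE; adjusted p = 0.652). Psmb2 had its D7E arrays at 11.83, 12.07 and 12.05, below the WTA arrays at 12.16 and 12.09, with -0.14 ± 0.16 (SE; adjusted p = 0.798).

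Psmb5 had the widest difference of all proteasome genes in both comparisons of D7E. Its single probe read 6.39, 6.0 and 6.29 on the D7E arrays, 5.58, 4.46 and 5.16 on the WTD arrays and 5.60 and 5.41 on the WTA arrays. Every D7E array was above every array of the other groups, and WTD replicate 2, at 4.46, was the only one of the 8 arrays on which the probe was not above background. D7E minus WTD was 1.16 ± 0.24 (SE; interval 0.64 to 1.68), with an unadjusted p of 0.000361 and an adjusted p of 0.193 in limma. D7E minus WTA was 0.72 ± 0.27 (SE; adjusted p = 0.275) and WTD minus WTA -0.44 ± 0.27 (SE; adjusted p = 0.509). Leaving out WTD replicate 2 brought D7E minus WTD to 0.86 and WTD minus WTA to -0.14. That array also had the fewest detected probes of the 8, 13653, and the lowest ratio of the 95th percentile of signal to its median, 3.20, and their part in the Psmb5 value was not tested. Without background correction the Psmb5 differences were 0.46 for D7E minus WTD and 0.32 for D7E minus WTA.

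Psmb7 had 4 tested probes. The one that stood for the gene read 11.11, 11.05 and 11.02 in D7E, 10.78, 10.83 and 10.83 in WTD and 10.45 and 10.73 in WTA. None of the 3 groups overlapped, with D7E highest and WTA lowest. D7E minus WTA was 0.47 ± 0.16 (SE; adjusted p = 0.229), and D7E minus WTD 0.25 ± 0.14 (SE; adjusted p = 0.699). This probe was called for D7E minus WTA when the signals were quantile-normalized without background correction, at 0.45 (adjusted p = 0.0398), and with the authors' deposited normalized values, at 0.45 (adjusted p = 0.0421). The other 3 Psmb7 probes gave 0.59, 0.26 and 0.03 for D7E minus WTA, the last 2 of them with overlapping arrays. Psmb6 read 11.17, 11.21 and 11.48 in D7E, 11.57, 11.39 and 11.08 in WTD and 11.49 and 11.19 in WTA. Its groups overlapped throughout, with -0.05 for D7E minus WTA, 0.01 for WTD minus WTA and -0.06 for D7E minus WTD, each with an SE of 0.17 to 0.19. A second Psmb6 probe had the opposite signs, at 0.13, -0.10 and 0.23.

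**Figure D3:**
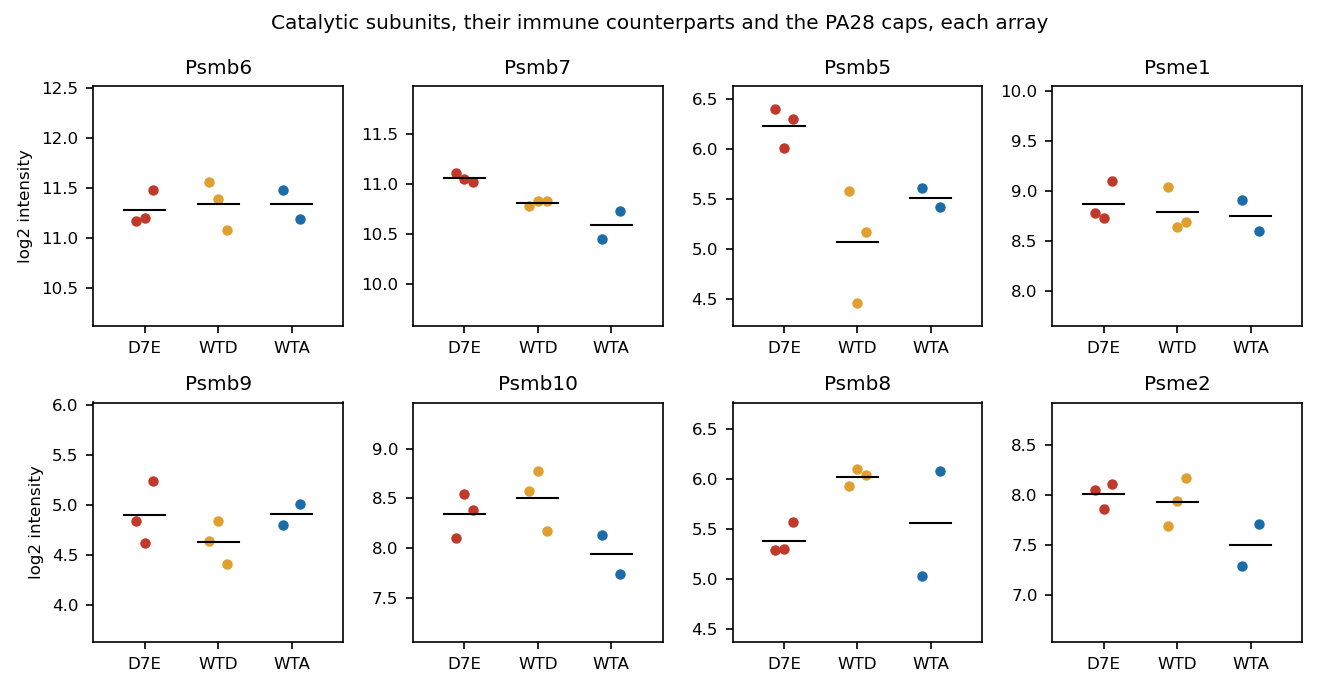
Normalized log2 intensity of the 3 cutting subunits, the immune subunit that takes the place of each (below it) and the activator pair Psme1 and Psme2 on each D7E, WTD and WTA array; points are arrays, lines are group means, and each panel spans the same height. The D7E arrays of Psmb5 lie between 6.0 and 6.39, above all WTD and WTA arrays, and Psmb8 has its WTD arrays between 5.92 and 6.10, above all D7E arrays.

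The immune group is made by the cutting subunits Psmb8, Psmb9 and Psmb10, which replace Psmb5, Psmb6 and Psmb7, and by Psme1 and Psme2, which form an activator ring. Psmb8 read 5.29, 5.29 and 5.57 in D7E, 5.92, 6.10 and 6.04 in WTD and 5.02 and 6.08 in WTA. D7E arrays lay below WTD arrays without overlap, while the WTA arrays lay 1 below and 1 above the D7E range. D7E minus WTD was -0.64 ± 0.23 (SE; adjusted p = 0.493), WTD minus WTA 0.47 ± 0.25 (adjusted p = 0.447) and D7E minus WTA -0.17 ± 0.25 (adjusted p = 0.853). The sign of both comparisons with WTA rested on single arrays, since D7E minus WTA was 0.36 without WTA replicate 2 and WTD minus WTA was -0.06 without WTA replicate 1. With arrays centred on their medians D7E minus WTA of Psmb8 was 0.10.

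The chymotrypsin-like site thus had its widest difference in opposite directions in its 2 forms, with Psmb5 at 1.16 and Psmb8 at -0.64 for D7E minus WTD, neither past the threshold. The 250 bases before the start of each are shown because this pair turns on the same site and because different motifs were set for the search in core and immune genes. Any part of these stretches in the differences was not tested. In capitals are the letters of the motif searched in each, TGACNNNGC for Psmb5, the core of the antioxidant response element bound by Nfe2l1 and Nfe2l2, and TTCNNNGAA for Psmb8, the gamma activated site of the interferon response. The Psmb5 stretch is chr14:54617996-54618245 on the minus strand and the Psmb8 stretch chr17:34197945-34198194 on the plus strand, both from RefSeq on GRCm38.p6 and printed 5′ to 3′.
Psmb5: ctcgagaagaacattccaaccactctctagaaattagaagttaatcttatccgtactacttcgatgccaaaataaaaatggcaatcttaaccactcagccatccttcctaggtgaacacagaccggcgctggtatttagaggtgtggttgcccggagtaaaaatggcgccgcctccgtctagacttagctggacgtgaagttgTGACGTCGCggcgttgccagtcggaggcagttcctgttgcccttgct
Psmb8: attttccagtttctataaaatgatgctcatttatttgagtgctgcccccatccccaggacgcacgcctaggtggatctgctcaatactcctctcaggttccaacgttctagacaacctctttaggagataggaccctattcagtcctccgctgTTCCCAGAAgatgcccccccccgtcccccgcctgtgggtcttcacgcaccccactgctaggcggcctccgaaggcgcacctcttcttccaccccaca

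The motif in Psmb5 began 47 bases before the start and that in Psmb8 97 bases before it. RefSeq windows of 250 bases before to 50 after the start were used for 42 of the genes, and both strands were searched. Proteasome genes on chromosome 18, such as Psma8, were left out of the search, whereas the set of all windows kept that chromosome. TGACNNNGC was in 6 of 36 windows of core, cap and assembly genes (16.7%), those of Psmb5, Psmb6, Psmc6, Psmd12, Psmd9 and Psme4, and in 0 of 7 windows of immune genes, beside 12.4% of all 32851 windows. TTCNNNGAA was in 1 of 7 windows of immune genes (14.3%), that of Psmb8, and in 2 of 36 of the others (5.56%), beside 8.3% of all windows. The letters of the interferon-stimulated response element were also in 1 of 7 immune windows, that of Psme1, and in 4 of 36 of the others (11.1%), beside 3.44% of all windows. These are matches of letters and not measured sites.

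Psmb10 read 8.10, 8.54 and 8.39 in D7E, 8.57, 8.77 and 8.17 in WTD and 8.14 and 7.75 in WTA. Its WTD arrays all lay above WTA, with 0.56 ± 0.22 (SE; adjusted p = 0.257), and 2 of 3 D7E arrays did, with 0.40 ± 0.22 (SE; adjusted p = 0.491). A second Psmb10 probe had both groups wholly above WTA, at 0.55 for D7E and 0.28 for WTD. Psmb9 read 4.83, 4.62 and 5.24 in D7E, 4.64, 4.83 and 4.40 in WTD and 4.80 and 5.01 in WTA. These readings were near background and overlapped in every comparison, at -0.01 for D7E minus WTA, -0.28 for WTD minus WTA and 0.27 for D7E minus WTD.

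Psme2 read 8.05, 7.86 and 8.11 in D7E, 7.69, 7.93 and 8.16 in WTD and 7.28 and 7.71 in WTA. The D7E arrays were above both WTA arrays, at 0.51 ± 0.20 (SE; adjusted p = 0.296), and WTD minus WTA was 0.43 ± 0.20 (SE; adjusted p = 0.342) with overlap. Its partner Psme1 was at 0.12, 0.03 and 0.08 for D7E minus WTA, WTD minus WTA and D7E minus WTD, with an SE of 0.17 to 0.19. The members of the immune group thus did not share one order of the 3 groups. Psmb8 and Psmb9 lie on either side of Tap1, the peptide transporter of antigen presentation, with no other protein-coding gene between them and it in RefSeq. Tap1 read 5.09, 5.12 and 5.32 in D7E, 5.62, 4.91 and 5.47 in WTD and 5.98 and 5.95 in WTA. Both groups were below WTA without overlap, at -0.79 ± 0.21 for D7E (SE; adjusted p = 0.134) and -0.63 ± 0.21 for WTD (SE; adjusted p = 0.182). For D7E minus WTA Tap1 passed the threshold without WTD replicate 2 (adjusted p = 0.0467) and with array quality weights (adjusted p = 0.0481).

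The caps unfold the substrate with a ring of 6 ATPases, Psmc1 to Psmc6, all of them tested. Their differences were -0.28 to 0.28 for D7E minus WTA, -0.30 to 0.34 for WTD minus WTA and -0.22 to 0.14 for D7E minus WTD. Psmc1 read 9.53, 9.46 and 9.60 in D7E, 9.56, 9.39 and 9.58 in WTD and 9.85 and 9.77 in WTA. Both groups lay below WTA without overlap, at -0.28 ± 0.16 for D7E (SE; adjusted p = 0.521) and -0.30 ± 0.16 for WTD (SE; adjusted p = 0.431), although the D7E value was 0.26 with arrays centred on their medians. Psmc4 read 11.02, 11.20 and 10.66 in D7E, 11.13, 11.13 and 11.14 in WTD and 11.04 and 10.56 in WTA. The WTD arrays of Psmc4 were above WTA, with 0.34 ± 0.20 (SE; adjusted p = 0.494).

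Of the 11 other cap subunits on the array 10 were tested, at -0.47 to 0.53 for D7E minus WTA, -0.24 to 0.34 for WTD minus WTA and -0.23 to 0.47 for D7E minus WTD. Psmd14, the cap's deubiquitinating metalloprotease, read 7.60, 7.54 and 7.63 in D7E, 7.54, 6.90 and 6.91 in WTD and 7.16 and 6.95 in WTA. The 3 D7E arrays lay together above all others, with WTD replicate 1 only just below the lowest of them. D7E minus WTA was 0.53 ± 0.21 (SE; adjusted p = 0.299) and D7E minus WTD 0.47 ± 0.18 (SE; adjusted p = 0.524). A second Psmd14 probe was also higher in D7E than WTA on every array, at 0.60 (adjusted p = 0.213), but its D7E and WTD arrays overlapped, at 0.14.

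Psmd1, a scaffold of the cap base, read 12.35, 12.10 and 12.12 in D7E, 12.46, 12.24 and 12.56 in WTD and 12.81 and 12.51 in WTA. All D7E arrays were below WTA, at -0.47 ± 0.18 (SE; adjusted p = 0.281), and WTD overlapped both groups. The other 2 probes of Psmd1 gave -0.29 and 0.35 for D7E minus WTA, the widest disagreement between probes of one proteasome gene. With arrays centred on their medians the D7E minus WTA value of the standing probe was 0.14. Psmd12, a lid subunit, was at -0.39 ± 0.17 for D7E minus WTA (SE; adjusted p = 0.352) with no overlap, and its second probe was at 0.16.

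Psmd4, a ubiquitin receptor of the cap, read 12.46, 12.50 and 12.59 in D7E, 12.55, 12.62 and 12.61 in WTD and 12.60 and 12.59 in WTA. Its intervals had the narrowest limits of the 43 genes, -0.40 to 0.25 for D7E minus WTA, -0.33 to 0.33 for WTD minus WTA and -0.37 to 0.22 for D7E minus WTD. Psmd11, a lid subunit, read 6.69, 6.80 and 6.80 in D7E, 6.57, 6.70 and 6.65 in WTD and 6.91 and 6.24 in WTA. The 2 WTA arrays of Psmd11 lay on either side of all others, so that D7E minus WTA was 0.19 with an interval of -0.24 to 0.61, and a second probe gave -0.07. Psmd13 and Psmd8, both subunits of the lid, were at 0.23 and 0.29 for D7E minus WTA, 0.34 and -0.04 for WTD minus WTA, and -0.11 and 0.33 for D7E minus WTD.

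Psme3 and Psme4 encode activators that bind the core in place of the usual cap. Psme3 read 9.84, 9.74 and 9.70 in D7E, 9.81, 9.77 and 9.59 in WTD and 9.73 and 9.84 in WTA, with the groups overlapping and all 3 differences between -0.06 and 0.04. Psme4 read 10.98, 11.06 and 10.68 in D7E, 11.26, 11.05 and 11.04 in WTD and 11.21 and 10.93 in WTA. Those groups overlapped too, at -0.16 ± 0.18 for D7E minus WTA, 0.05 ± 0.18 for WTD minus WTA and -0.21 ± 0.16 for D7E minus WTD (SE).

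**Figure D4:**
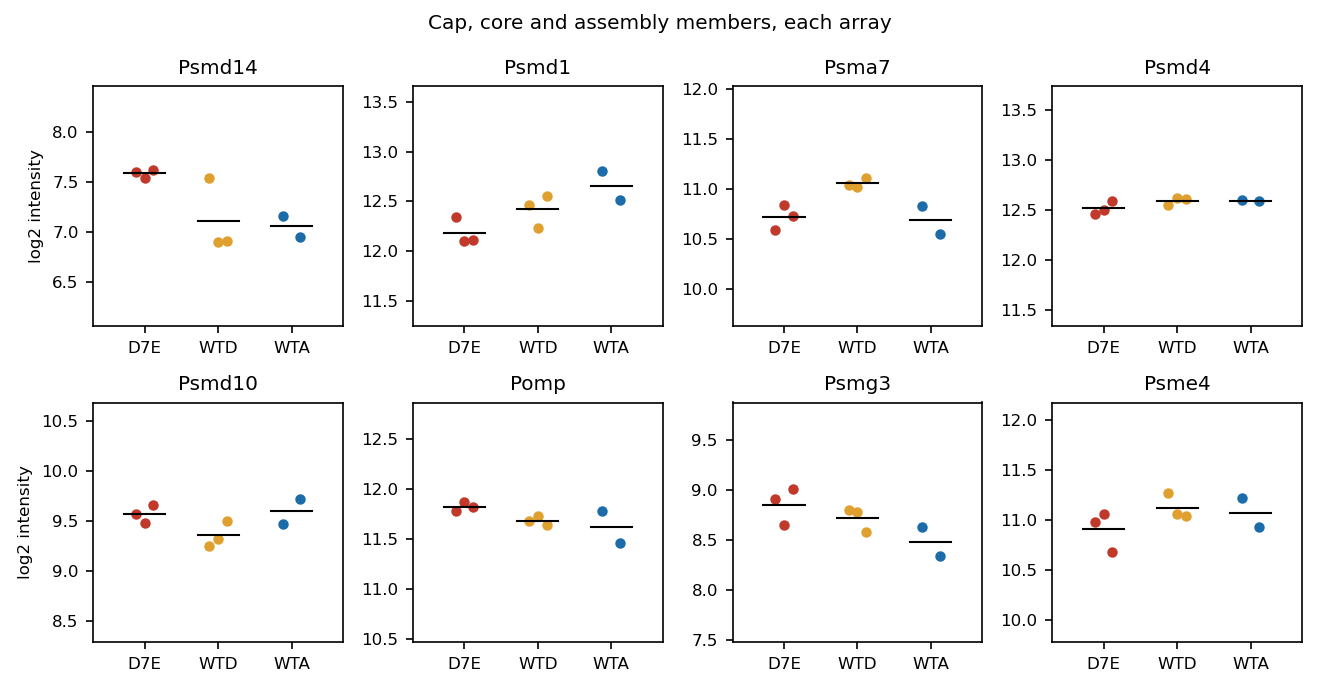
Normalized log2 intensity of 4 cap and core members (top) and of 3 assembly factors with Psme4 (bottom) on each D7E, WTD and WTA array; points are arrays, lines are group means, and each panel spans the same height. The D7E arrays of Psmd14 lie between 7.54 and 7.63, above both WTA arrays, and those of Psmd4 between 12.46 and 12.59, level with the other groups.

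Assembly factors bring the rings together and leave the finished particle. Of the 8 genes 7 were tested, and 6 of the 7 had a value above 0 in each comparison, with a range of -0.03 to 0.37 for D7E minus WTA, -0.24 to 0.28 for WTD minus WTA and -0.02 to 0.22 for D7E minus WTD. On the probe standing for each gene, 0 of 7 had an unadjusted limma p under 0.05 in any comparison, beside 12.4%, 14.1% and 8.12% of all probes. Other probes of Psmd10 and Psmg2, given below, differed more for D7E minus WTA. Pomp, the maturation factor of the core, read 11.78, 11.87 and 11.82 in D7E, 11.69, 11.73 and 11.64 in WTD and 11.78 and 11.46 in WTA. Its D7E arrays lay above the WTD arrays, by 0.14 ± 0.14 (SE; adjusted p = 0.852), and D7E minus WTA was 0.20 ± 0.16 (SE; adjusted p = 0.693).

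Psmg3, a chaperone of the alpha ring, read 8.90, 8.64 and 9.01 in D7E, 8.79, 8.78 and 8.58 in WTD and 8.62 and 8.34 in WTA. D7E arrays were above WTA without overlap, at 0.37 ± 0.18 (SE; adjusted p = 0.426). Psmg1, which acts on the same ring, was at 0.25 ± 0.19 (SE; adjusted p = 0.660) with no overlap. Psmg2, its partner, was at 0.04 on the standing probe, and its other 2 probes were at 0.20 and 0.49 (adjusted p = 0.232 for the last).

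Psmd10, known as gankyrin and a chaperone of the cap base, had 3 tested probes that differed. The standing probe read 9.57, 9.47 and 9.66 in D7E, 9.25, 9.32 and 9.50 in WTD and 9.47 and 9.72 in WTA, with overlap and a D7E minus WTA value of -0.03. Another read 8.01, 7.95 and 8.06 in D7E, 7.36, 7.31 and 7.48 in WTD and 7.53 and 7.38 in WTA. Its D7E arrays were above all others, by 0.55 ± 0.16 from WTA (SE; adjusted p = 0.164) and 0.63 ± 0.14 from WTD (SE; adjusted p = 0.245). That probe was called for D7E minus WTA without background correction, at 0.40 (adjusted p = 0.0320), and with the authors' deposited normalized values, at 0.41 (adjusted p = 0.0320). The remaining Psmd10 probe also had its D7E arrays above WTA, at 0.47 (adjusted p = 0.363). Psmd5 and Psmd9, the other chaperones of the base, were at 0.26 each for D7E minus WTA, with intervals of -0.58 to 1.10 and -0.29 to 0.80.

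Psmc3ip, a cofactor of meiotic recombination named for its binding to a cap ATPase, and Psme3ip1, named for binding Psme3, were at 0.11 and 0.10 for D7E minus WTA. Psmc3ip read 6.75, 6.60 and 6.92 in D7E, 6.96, 7.06 and 6.87 in WTD and 6.61 and 6.68 in WTA, with WTD above WTA by 0.32 ± 0.16 (SE; adjusted p = 0.417). The arrays of Psme3ip1 overlapped in all 3 comparisons, and its second probe was at -0.08 for D7E minus WTA.

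Probes of one gene often disagreed. Among the 21 genes with 2 or more tested probes, all probes had the same sign for 12 in D7E minus WTA, 11 in WTD minus WTA and 13 in D7E minus WTD. The range between the probes of a gene had a median of 0.26, 0.28 and 0.28, and was widest at 0.82 for Psmd1 in D7E minus WTA. Opposite signs in D7E minus WTA were also read for Psmb6, Psmc2, Psmc5, Psmd7, Psmd10, Psmd11, Psmd12 and Psme3ip1. For Psmc2, an ATPase, the probes were at -0.19 and 0.37, and for Psmc5, another ATPase, at 0.28 and -0.08. The median range between probes exceeded the median absolute difference of the 43 genes, which was 0.16, 0.08 and 0.13.

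**Figure D5:**
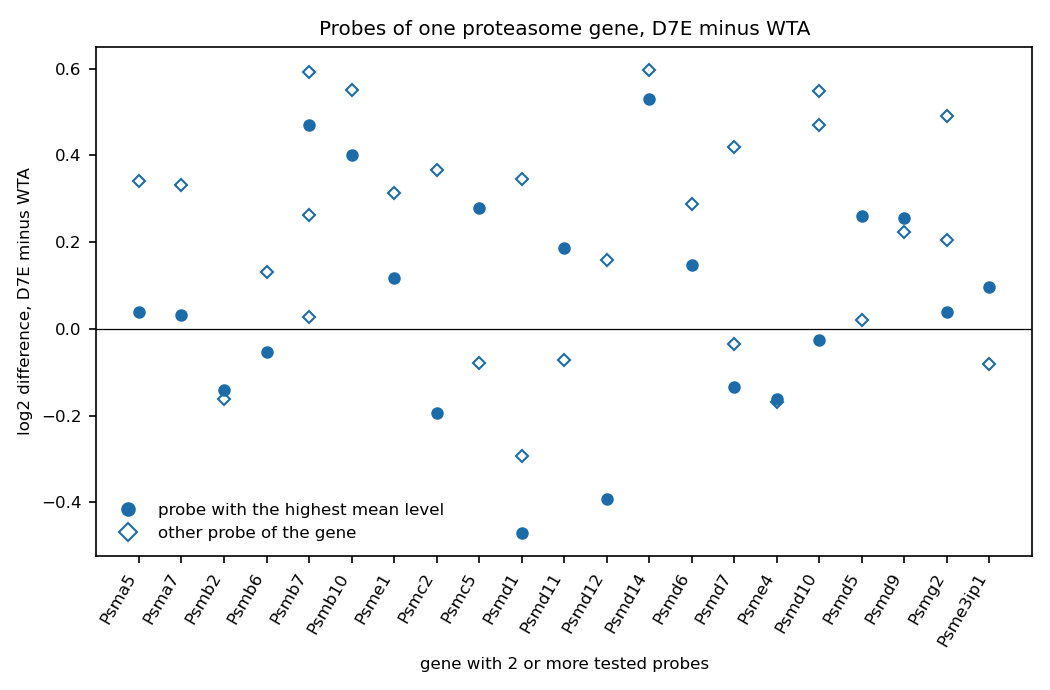
Log2 difference D7E minus WTA of every tested probe of the 21 proteasome genes with 2 or more tested probes; filled circles are the probe with the highest mean level, open diamonds the others. For 12 genes all probes lie on the same side of 0, and the 3 Psmd1 probes run from -0.47 to 0.35.

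The other genes of the pathway that were tested are given by list. Of 19 associated factors on the array 16 were tested, and limma called 0 of them in any comparison, with medians of -0.02 for D7E minus WTA, -0.01 for WTD minus WTA and 0.02 for D7E minus WTD. Nfe2l1, the transcription factor that drives proteasome genes when proteasome activity is low, was at -0.11 for D7E minus WTA and -0.08 for WTD minus WTA, and Nfe2l2 at -0.11 and -0.27. Vcp, the segregase that hands substrates over, was at -0.13 and 0.02. The cap subunit Sem1 read 10.57, 10.43 and 10.45 in D7E, 10.63, 10.53 and 10.49 in WTD and 10.04 and 10.21 in WTA. Both groups were above WTA, at 0.36 ± 0.16 for D7E (SE; adjusted p = 0.369) and 0.42 ± 0.16 for WTD (SE; adjusted p = 0.236). Sem1 was called by limma for WTD minus WTA without background correction (adjusted p = 0.0426). The same held with the authors' deposited normalized values, those of WTD reordered as described below (adjusted p = 0.0440). The deubiquitinases Uchl5 and Usp14 were at 0.07 and 0.22 for D7E minus WTA and 0.14 and 0.09 for WTD minus WTA.

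Of 12 oxidative stress targets of Nfe2l2 on the array 11 were tested, and limma called 0 in any comparison, with medians of 0.04, 0.11 and -0.05 for D7E minus WTA, WTD minus WTA and D7E minus WTD. Interferon and antigen presentation genes numbered 25 on the array, of which 20 were tested and 0 called, with medians of -0.13, 0.02 and -0.15. Among them Irf1 was at -0.11 for D7E minus WTA and 0.04 for WTD minus WTA, and B2m, the light chain of the class I complex, at 0.35 and 0.01.

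Of 6 listed ubiquitin genes only 1 was named on the array, Uba6, an enzyme that activates ubiquitin. Its 1 tested probe read 6.42, 6.31 and 6.23 in D7E, 6.58, 6.71 and 6.35 in WTD and 5.31 and 5.23 in WTA. Uba6 was higher than in WTA in both groups, by 1.05 ± 0.17 in D7E (SE; 2.07-fold; adjusted p = 0.0188) and by 1.28 ± 0.17 in WTD (SE; adjusted p = 0.00462), whereas D7E minus WTD was -0.22 (adjusted p = 0.737) and 0.38 with arrays centred on their medians. The probe is annotated to a cDNA clone, and the other Uba6 probe, annotated to the RefSeq transcript, was above background on 1 array and was not tested. The D7E call was lost without D7E replicate 1 or 2 or WTA replicate 1 or 2 (adjusted p = 0.111 to 0.216), and the WTD call without WTA replicate 1 (adjusted p = 0.0600). The differences were 0.45 for D7E and 0.57 for WTD without background correction, where both calls held. With the authors' deposited normalized values, those of WTD reordered as described below, they were 0.46 and 0.58, and both calls held. Under median centring both calls were lost, at 1.41 for D7E (adjusted p = 0.807) and 1.04 for WTD (adjusted p = 0.9999).

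Across the series, 13653 to 17565 probes were detected per array, and precision is limited by how few arrays there were. Pabpn1, read by 1 probe, was at 9.16, 9.58 and 10.58 in D7E, 10.24, 10.26 and 9.87 in WTD and 9.24 and 9.18 in WTA. The WTD arrays were above WTA by 0.91 ± 0.32 (SE; adjusted p = 0.205). The low level in the WTD label refers to PABPN1-FLAG, and whether this probe reads PABPN1-FLAG, the cells' own Pabpn1 or both is not known here. D7E minus WTA was 0.57 (adjusted p = 0.516), and D7E minus WTD was -0.35, which turned to 0.43 with arrays centred on their medians. All 9 myotube markers were detected on every array, and Pax7, Myf5, Ptprc, Cd74, Pecam1 and Cdh5 were at background on at least 7 of 8. Of the other leukocyte and endothelial markers on the array, Csf1r and Kdr were detected on 3 arrays each and Lyz2 on 2. Top2a, a marker of cycling cells, was detected on 0 of 3 D7E, 2 of 3 WTD and 2 of 2 WTA arrays. Both groups lay below WTA without overlap, at -0.71 in D7E (limma adjusted p = 0.0714) and -0.46 in WTD (adjusted p = 0.191). The D7E readings were at background, so the size of that difference is uncertain. The summed intensity of 4 tested fibroblast markers was 1744 to 2517 in D7E, 1528 to 1761 in WTD and 2473 to 2896 in WTA. D7E thus overlapped both WTD and WTA, whereas WTD lay below WTA. Col1a1 was the brightest of the 4, with log2 group means of 10.85, 10.45 and 11.20. Col1a1, Col3a1 and Dcn had their lowest group mean in WTD, whereas Pdgfra had 4.41 in D7E, 4.65 in WTD and 4.65 in WTA. The part of these markers in the values above was not tested. In such bulk samples fewer cells of a type and less RNA per cell cannot be told apart.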

How the data were processed

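RNA was read on 3 D7E, 3 WTD and 2 WTA Illumina bead arrays. The raw tables give every one of 45281 probes an intensity, not normalized, per the file headers. They also give a detection p-value, as deposited by the authors. The authors' deposited normalized values are log2 intensities with the same median, 6.45, in every column. They served as an alternative, those of the WTD set after the reordering described below. Both raw tables carry the same WTA arrays, value for value, so each counted once. Replicate 3 of WTA was not analysed here.

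Both raw tables list the same probes in the same order, but in the WTD table the WTD signals follow another order than the WTA signals. Their order was restored by matching each probe's pair of WTA ranks between the raw table and the authors' normalized values. All 45281 probes matched, and rank correlations of WTD with WTA signals were -0.00787 to 0.0025 as deposited and 0.725 to 0.789 afterwards, with 0.760 to 0.780 for D7E. The authors' normalized values of the WTD set were reordered by the same match, after which their WTA values were identical in both sets. Each WTD value depends on this match, also where the authors' deposited normalized values were used. In WTD replicates 1 and 3 the detection p-values did not match the signals, with rank correlations of -0.714 and -0.711. The other arrays had -0.996 to -0.987. Detection on those 2 arrays was therefore estimated from 23132 background probes. Why they did not match was not tested, and values of these 2 replicates rest on the labels of their signal columns. On the other 6 arrays the estimate gave the same call for 97.3% to 98.8% of probes.

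All 8 arrays were normalized together with limma's neqc (limma 3.58.1, R 4.3.3; background taken from the detection p-values, as control probes were not used; offset 16), so that each probe has one level per array. Probes with a detection p under 0.05 on at least 2 arrays, 18815 in all, were fitted with lmFit and eBayes in one model of 3 group means (two-sided, 5 residual degrees of freedom) and adjusted with Benjamini-Hochberg, with a threshold of 0.05. The fit was tested on simulated data.

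Symbols came from the platform annotation (34885 probes with 1 symbol, 18 with several, 10378 with none), and all 50 symbols were found in RefSeq. The genes, lists and markers were chosen with earlier results of these data known. Genes with values per array were those called, the 2 with the smallest F-test p per role, and a fixed set of catalytic, cap and assembly genes, and any other is named with fewer values. Psmb2, Psmb3, Psmd12, Psmg1 and second probes of named genes were added after their values were seen. Alternatives were the background correction, the scaling, the filter, the fit within each raw table, array weights, a replicate block and leaving out arrays. Slides and scan dates are in no header, and batch effects were therefore not tested.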

Additional observations from a re-analysis of the deposited data

How the results depend on the processing

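No proteasome probe was called with another filter, with arrays centred, with array weights, within each raw table, with the replicate block or without any one array. For D7E minus WTA 2 were called without background correction and 2 with the authors' values, and the cause was not tested. Counts over all probes moved more, as 107, 269 and 5 probes (D7E minus WTA, WTD minus WTA, D7E minus WTD) became 0, 0 and 0 with arrays centred on their medians, 23, 53 and 4 with arrays centred on the medians of tested probes (chosen after seeing the data), 301, 299 and 64 with array weights, 276, 341 and 2 without background correction, 276, 338 and 2 with the authors' values, 59, 62 and 0 without a filter, and 98, 256 and 1 with detection on all arrays of a group. Fitted within each raw table they were 71 and 210. Leaving out arrays gave 0 to 189, 2 to 395 and 0 to 72, lowest for the first 2 without WTA replicate 1. Without a WTA array the remaining one is assumed to vary like the other groups.

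With arrays centred on their medians, the median of all probes was 0.26 for D7E minus WTA and 0.40 for D7E minus WTD. The proteasome medians were then 0.535, -0.129 and 0.708, which is 0.27, -0.04 and 0.31 from the median of all probes. Centring on tested probes gave 0.203 for D7E minus WTA, -0.0269 for WTD minus WTA and 0.274 for D7E minus WTD. Leaving out arrays gave -0.0117 to 0.132, -0.0476 to 0.0937 and -0.017 to 0.0649. Of the 66 values of named genes, 23 changed sign with arrays centred on their medians and 18 with tested probes centred, none of them called.

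The other pathway genes tested were 16 associated factors, 11 oxidative stress targets, 20 interferon and antigen presentation genes and Uba6. Of all probes 0.569% were called for D7E minus WTA and 1.43% for WTD minus WTA. Of the other pathway genes 1 was called for D7E minus WTA, 0 with either centring, 2 with array weights and 0 to 2 without one D7E or WTD array. For WTD minus WTA 1 was called, 2 without background correction and with the authors' values, 0 with arrays centred on their medians and 0 to 1 without one array. Pabpn1 was at 1.09 for D7E minus WTA and 0.425 for D7E minus WTD with arrays centred on their medians. Its WTD minus WTA difference, 0.846 to 1.04 without one array, was called without D7E replicate 3 (adjusted p = 0.0415).

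Replicate numbers did not pair the arrays, as deviations of same-numbered arrays had correlations of -0.275 to 0.150. With the replicate block 52, 311 and 7 probes were called, and the proteasome medians were 0.0662, 0.0271 and 0.0460. Signal near background limits Psmb5, Psmb9, Psmc6, Psmd2, Psmd5 and Psmd9, which were not detected on every array.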
